A study of Mus musculus with 10 samples.

Results

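The sodium-potassium ATPase (Na,K-ATPase) genes described here are *Atp1b1* and *Atp1b3*, which encode beta subunits of the pump, and *Fxyd2*, *Fxyd3*, *Fxyd4*, *Fxyd5* and *Fxyd6*, which encode small membrane proteins that bind it. They are 7 of the 39273 genes in the deposited table and were taken by their gene names. The list of names was chosen with earlier results of these data known. Their levels were followed by RNA-seq in 5 groups of mouse samples with 2 libraries each. UB organoids are branching cultures grown in Matrigel from the ureteric bud (UB) of kidneys of about embryonic day 11, the epithelium that later forms the collecting ducts. They came from mice with the labels' genotype Wnt11-RFP +/- on a C57BL/6 x Swiss Webster background, and were sampled on days 5, 10 and 20 in mUBCM (UB D5, D10 and D20), a medium with FGF9, GDNF, Rspo1 and small molecules that act on retinoic acid, Wnt, BMP, TGF-beta, JAK and p38 signalling. Collecting duct (CD) organoids were UB organoids moved on day 10 for a week into a differentiation medium with FGF9, the ROCK inhibitor Y27632, the Notch inhibitor DAPT, the MEK inhibitor PD0325901, aldosterone and vasopressin. Adult mCD cells were, according to the design text, sorted from kidneys of 2-month-old mice by a Venus reporter driven by Hoxb7, a gene of the UB lineage. The sample labels of the adult libraries instead carry the embryonic age, the Wnt11-RFP genotype and the word organoid. Among the organoids, the labels give embryonic day 11 for the UB D20 and CD organoid libraries. For the UB D5 and D10 libraries the labels give a later age within that same day. Comparisons of UB D5 or D10 with UB D20 or CD organoids therefore also set these label ages against each other. The part of this difference in the results was not tested. The number of animals behind each library is not given in the sources used here.

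The Na,K-ATPase moves sodium out of the cell and potassium into it at the cost of ATP, and in kidney tubules it sits in the basolateral membrane, where it drives sodium reabsorption. Its catalytic alpha subunit leaves the endoplasmic reticulum only with a beta subunit, and FXYD proteins adjust how well the complex binds sodium and potassium. *Atp1b1* encodes the beta subunit common in the adult kidney. *Fxyd2*, the gamma subunit, is known from proximal and distal nephron segments, and *Fxyd4*, also called CHIF (corticosteroid hormone-induced factor), from the collecting duct.

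The libraries held 11913613 to 24536676 counts, and all 6 libraries of UB D20, CD organoids and adult mCD held fewer counts than all 4 of UB D5 and D10. Levels are given in CPM, the usual counts scaled to a fixed library size, here with edgeR's TMM factors, which lay between 0.792 and 1.12. The detection limit used here, 3 counts in a library, equalled 0.109 to 0.241 CPM and allows for counting error only. Nothing says whether the 2 libraries of a group came from separate cultures or animals, so that the p-values measure the spread between libraries, which may be technical. Of 8 principal cell markers, the summed level was 1290 and 1147 CPM in the CD organoid libraries and 12428 and 11951 CPM in adult mCD. Of these, *Avpr2* was at 0 in the CD organoids, but lay near the detection limit in adult mCD as well. The sum was 108 to 226 CPM in the UB organoid libraries. Of 8 intercalated cell markers, the sum was 1931 and 1847 CPM in CD organoids and 2658 and 2756 CPM in adult mCD, against at most 6.28 CPM in the UB organoid libraries. Single markers were uneven. In CD organoids the intercalated ones ran from 0.467% (*Slc4a1*) and 16.8% (*Slc26a4*) to 103% (*Atp6v0d2*) and 290% (*Foxi1*) of the adult mean. The principal ones ran from 0 (*Avpr2*, of few counts in adult mCD too) and 0.146% (*Kcnj1*) to 38.0% (*Scnn1b*). The adult mCD libraries also held RNA of other cells, with all 9 proximal tubule, all 5 loop of Henle and all 6 endothelial markers above 3 counts and sums of 10138 and 12486, of 3543 and 3753, and of 663 and 664 CPM. The 4 distal convoluted tubule markers summed to 1663 and 1790 CPM there and to 801 and 885 CPM in CD organoids, where *Calb1* held 68.0% of its adult mean and *Trpm6*, *Slc12a3* and *Pvalb* 5.48%, 0.208% and 0.0683% of theirs. In adult mCD and CD organoids, in that order, the 6 stromal markers summed to 138 and 153 CPM and to 259 and 128 CPM, and the 4 erythroid markers to 26.2 and 16.2 CPM and to 0.142 and 0.561 CPM. In bulk samples such as these, fewer cells of a type and less RNA per cell cannot be told apart.

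The sequences upstream of 4 members are shown because these members set the contrasts described below: *Atp1b1* against *Atp1b3* among the beta genes, and *Fxyd4* against *Fxyd6* among the Fxyd genes. Each line gives the 250 bases before the start of transcription, 5′ to 3′ on the gene's own strand, from RefSeq on GRCm38.p6, and for *Atp1b3* before the first of its 2 listed starts. Starts were listed for 6 of the 7 members, all but *Fxyd2*. Capitals mark matches on either strand to the GC box GGGCGG, the CCAAT box, the AT-rich runs TATATA or TTTAAA, and a spaced pair written CCAGNNNNNNCCAG, of the kind that factors of the CP2 family bind. No matches overlap.

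Atp1b1, chr1:164458356-164458605, minus strand: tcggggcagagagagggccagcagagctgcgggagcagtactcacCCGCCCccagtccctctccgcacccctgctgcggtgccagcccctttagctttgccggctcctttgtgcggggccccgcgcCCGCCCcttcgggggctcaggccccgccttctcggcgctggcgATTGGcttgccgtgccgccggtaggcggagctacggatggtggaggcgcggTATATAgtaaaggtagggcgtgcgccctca

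Atp1b3, chr9:96364432-96364681, minus strand: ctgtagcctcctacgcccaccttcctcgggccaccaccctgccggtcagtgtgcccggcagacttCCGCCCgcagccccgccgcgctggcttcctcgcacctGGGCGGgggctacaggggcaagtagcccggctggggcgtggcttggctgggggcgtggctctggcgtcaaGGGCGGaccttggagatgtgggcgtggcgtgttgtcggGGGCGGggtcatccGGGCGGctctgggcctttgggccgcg

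Fxyd4, chr6:117937336-117937585, minus strand: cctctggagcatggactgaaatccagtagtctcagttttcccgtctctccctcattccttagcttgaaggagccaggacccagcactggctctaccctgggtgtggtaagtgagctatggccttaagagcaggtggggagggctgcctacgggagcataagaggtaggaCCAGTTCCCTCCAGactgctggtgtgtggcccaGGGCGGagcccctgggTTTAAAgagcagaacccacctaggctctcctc

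Fxyd6, chr9:45369935-45370184, plus strand: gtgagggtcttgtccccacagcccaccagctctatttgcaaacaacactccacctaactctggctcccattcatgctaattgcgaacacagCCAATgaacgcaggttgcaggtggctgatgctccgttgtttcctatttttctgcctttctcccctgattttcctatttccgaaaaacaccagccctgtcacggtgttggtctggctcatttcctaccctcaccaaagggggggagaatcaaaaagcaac

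The motifs were chosen after the sequences had been seen, and a match describes letters only. *Atp1b1* holds TATATA from base 30 to base 25 before the start, a run found in 5.25% of all 32851 promoter windows, with a CCAAT box at base 81 and GC boxes at bases 205 and 124. The window of *Atp1b3* holds 5 GC boxes and neither of the AT-rich runs. *Fxyd4* holds TTTAAA from base 32 to base 27 (12.1% of windows), a GC box from base 48, and the spaced CCAG pair from base 81 to base 68 (2.78% of windows). *Fxyd6* holds a single CCAAT box from base 159. GC boxes were found in 32.7% and CCAAT boxes in 33.8% of windows, and AGAACA, one arm of the element that steroid receptors bind, in 16.1% of windows and in none of the members' windows.

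*Atp1b1* rose at every step of the culture and again in CD organoids. Its level was 25.5 and 36.5 CPM at UB D5, 82.6 and 67.1 CPM at D10, 247 and 287 CPM at D20, 1714 and 1739.55 CPM in CD organoids, and 4452 and 4293 CPM in adult mCD. No libraries of neighbouring groups overlapped in this series. The log2 fold change was 1.27 ± 0.14 (SE) from D5 to D10, with an adjusted p of 2.04e-05, and 1.84 ± 0.14 from D10 to D20, with an adjusted p of 8.98e-07, by the quasi-likelihood test of edgeR with Benjamini-Hochberg adjustment over all 24410 genes tested. CD organoids stood 23.1-fold above UB D10 (log2 4.53 ± 0.16, edgeR adjusted p = 6.00e-11) and 6.46-fold above UB D20 (log2 2.69 ± 0.14, edgeR adjusted p = 3.87e-09). They reached 39.2% and 39.8% of the adult mean, and adult mCD was 2.53-fold higher (edgeR adjusted p = 1.72e-06). The part of the tubule cells of the adult libraries in the adult *Atp1b1* level was not tested. Exons of *Atp1b1* overlap those of *Nme7* on the other strand, and the sources used here do not state whether counting used the strand. *Nme7* lay between 14.4 and 33.4 CPM in all libraries and was lower in both CD organoid libraries than in every UB organoid library, the opposite order to *Atp1b1*.

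*Atp1b3*, the other beta gene measured at a level above a few CPM throughout, moved within a narrow range. It stood at 89.9 and 85.5 CPM at UB D5, 115 and 136 CPM at D10, 166 and 152 CPM at D20, 134 and 127 CPM in CD organoids, and 159 and 153 CPM in adult mCD. From D5 to D20 it rose 1.82-fold (log2 0.86 ± 0.09, edgeR adjusted p = 2.59e-06), with no overlap between the libraries. The part of this rise from D10 to D20 (log2 0.34 ± 0.09, edgeR adjusted p = 0.00843) lost its call without D10 replicate 1 (log2 0.25, adjusted p = 0.0298), without D20 replicate 1 (0.30, adjusted p = 0.0795) or without D20 replicate 2 (0.41, adjusted p = 0.0214), in the same edgeR fit. Between CD organoids and UB D10 the libraries overlapped, at a log2 fold change of 0.06 ± 0.09 that turned to -0.04 with library totals in place of TMM. The log2 differences from UB D20 (-0.29 ± 0.09, edgeR adjusted p = 0.0160) and from adult mCD (-0.26 ± 0.09, edgeR adjusted p = 0.0253) missed the threshold of 0.01. The difference from adult mCD passed with DESeq2 (-0.31, adjusted p = 0.00914). With library totals it turned to 0.14, while the median of all genes moved by 0.34 in the same direction.

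*Fxyd4* rose steeply from UB to CD organoids. It was counted at 0.683 and 0.735 CPM at UB D5, 4.28 and 3.83 CPM at D10, 3.34 and 4.76 CPM at D20, 207 and 189 CPM in CD organoids, and 549 and 539 CPM in adult mCD. The gene thus rose 5.37-fold from D5 to D10 (log2 2.43 ± 0.20, edgeR adjusted p = 1.41e-06), and the libraries of D10 and D20 overlapped. CD organoids exceeded UB D10 48.2-fold (log2 5.59 ± 0.12, edgeR adjusted p = 1.65e-12) and UB D20 48.5-fold (log2 5.601 ± 0.12, edgeR adjusted p = 2.84e-12). The first of these comparisons sets shallower against deeper libraries, and the second is among the shallower ones. Both CD organoid libraries stayed below both adult libraries, at 38.1% and 34.6% of the adult mean, and adult mCD was 2.75-fold higher (edgeR adjusted p = 1.00e-08).

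*Fxyd2* was abundant in adult mCD and close to the limit of detection in UB organoids. Its level was 706 and 784 CPM in adult mCD, from 9360 and 9977 counts. In CD organoids it was 3.84 and 3.29 CPM, from 54 and 41 counts, and in the 6 UB organoid libraries it lay between 0.121 and 0.991 CPM, from 2 to 24 counts. CD organoids were thus 205-fold below adult mCD (log2 -7.68 ± 0.25, edgeR adjusted p = 2.18e-11), and the ratio of the summed counts, per scaled library size, was 0.00482 with an exact 95% interval of 0.00389 to 0.00589 that covers counting error only.

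CD organoids were also above UB organoids in *Fxyd2*, 5.18-fold over D10 (log2 2.37 ± 0.42, edgeR adjusted p = 3.49e-04) and 6.13-fold over D20 (log2 2.62 ± 0.50, edgeR adjusted p = 6.67e-04). The D10 value was 3.12 without D10 replicate 1, and with limma it was 2.42, at an adjusted p of 0.0206 that misses the threshold. The D20 value was 1.79 without D20 replicate 1 and 4.38 without D20 replicate 2, and without CD organoid replicate 1 it was 2.498, with an adjusted p of 0.0103 in the same fit that misses the threshold. Traces of adult tubule genes were measured in the organoid libraries. Over the 14 proximal tubule and loop of Henle markers, the median level was 0.0358% of the adult mean in CD organoid replicate 1, 0.178% in replicate 2, 0.0442% in D20 replicate 1 and 0.106% in D20 replicate 2. The highest of the 14 stood at 6.29%, 5.53%, 2.96% and 2.56% in these libraries, in that order. *Fxyd2* stood at 0.516%, 0.441%, 0.0163% and 0.133% of its adult mean in the same 4 libraries. It was higher in the CD organoid library with the smaller median and the larger highest marker. The part of such traces in the *Fxyd2* counts, and that of the tubule cells of the adult libraries in the adult level, was not tested.

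*Fxyd3* was the one member that was higher in CD organoids than in adult mCD. It was counted 69 and 50 times in CD organoids (4.91 and 4.01 CPM) and 10 and 8 times in adult mCD (0.754 and 0.629 CPM). In UB organoids it was counted between 0 and 4 times per library. CD organoids exceeded adult mCD 6.06-fold (log2 2.60 ± 0.46, edgeR adjusted p = 2.93e-04), with an exact 95% interval of the count ratio of 3.93 to 11.3. Against UB D10 the count ratio was 59.1 (exact 95% interval 22.5 to 220.4) and the fitted log2 change 5.12 ± 0.52 (edgeR adjusted p = 1.84e-06). Against UB D20 they were 35.5 (13.5 to 132) and 4.65 ± 0.55 (edgeR adjusted p = 9.76e-06), and the fitted value was 6.40 without D20 replicate 1 and 3.93 without replicate 2. Exons of *Fxyd3* overlap those of *Lgi4* on the other strand. *Lgi4* was at 1.28 and 1.36 CPM in CD organoids (18 and 17 counts), within its range of 0.951 to 1.57 CPM over the D10 and D20 libraries. It was lower in adult mCD, at 0.301 and 0.157 CPM (4 and 2 counts), and at UB D5, at 0.128 and 0.163 CPM. The part of *Lgi4* reads in the *Fxyd3* counts was not tested.

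*Fxyd5*, known as dysadherin, was low in every organoid group. It was counted between 1 and 15 times per UB organoid library (0.0408 to 0.910 CPM), 11 and 10 times in CD organoids (0.783 and 0.802 CPM), and 261 and 222 times in adult mCD (19.7 and 17.4 CPM). Adult mCD exceeded CD organoids 22.0-fold (log2 -4.46 ± 0.40 for CD organoids over adult, edgeR adjusted p = 5.80e-07) and UB D20 31.6-fold (log2 4.98 ± 0.42, edgeR adjusted p = 1.47e-07), the latter at 6.66 without D20 replicate 1 and 4.27 without D20 replicate 2. None of the 5 comparisons among organoid groups passed in the edgeR fit used throughout, where 2 had an unadjusted p under 0.05, and none passed by limma or DESeq2. One of these, D20 against D5 (log2 1.89 ± 0.65, edgeR adjusted p = 0.0298), passed without D20 replicate 2 (2.62, adjusted p = 0.00178). With no filter on low counts both passed in edgeR, D10 against D5 at 1.68 (adjusted p = 0.00381) and D20 against D5 at 1.89 (adjusted p = 0.0015). CD organoids over UB D10 gave a log2 value of 0.73 ± 0.52 (edgeR adjusted p = 0.273), with a count ratio between 0.920 and 3.26 in the exact 95% interval. The 6 endothelial markers, which summed to 663 and 664 CPM in adult mCD and to 3.77 and 3.85 CPM in CD organoids, were higher in adult mCD together with *Fxyd5*, as were the tubule markers, and their part in the result was not tested. The 6 leukocyte markers summed to 40.9 and 44.8 CPM in adult mCD and to 106 and 96.0 CPM in CD organoids, a sum carried by *Cd74* and *Ptprc* at 246% and 267% of their adult means. The other 4 were lower in CD organoids in level, with *Cd52* at 24.6%, *Laptm5* at 31.3% and *Coro1a* at 4.12% of the adult mean and *Tyrobp* at 0, and of these *Coro1a* passed the test. The part of leukocytes in the *Fxyd5* level was not tested either.

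*Fxyd6*, known as phosphohippolin, was the one member that fell through the UB culture. Its level was 29.1 and 21.8 CPM at UB D5, 13.5 and 7.77 CPM at D10, 1.09 and 0.859 CPM at D20, 4.20 and 2.49 CPM in CD organoids, and 5.35 and 7.62 CPM in adult mCD. The libraries of D5, D10 and D20 did not overlap. From D5 to D20 the gene fell 24.7-fold (log2 -4.62 ± 0.35, edgeR adjusted p = 2.04e-07). The step from D5 to D10 was -1.26 ± 0.25 (edgeR adjusted p = 0.00172) and missed the threshold without D5 replicate 1 (-1.03, adjusted p = 0.0266 in the same fit). The step from D10 to D20 was -3.37 ± 0.36 (edgeR adjusted p = 1.55e-05).

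CD organoids lay between the UB organoid days in *Fxyd6*, below D10 (log2 -1.64 ± 0.31, edgeR adjusted p = 5.06e-04) and above D20 (1.73 ± 0.42, edgeR adjusted p = 0.00411). Both calls rested on few counts, at most 59 in each CD organoid and D20 library. The first was -1.31 without CD organoid replicate 2 (adjusted p = 0.0149 in the same fit). The second was 1.90 without D20 replicate 1 (adjusted p = 0.0212), 1.58 without D20 replicate 2 (adjusted p = 0.0366) and 1.30 without CD organoid replicate 1 (adjusted p = 0.0739). The difference between CD organoids and adult mCD, -0.93 ± 0.33, missed the threshold with an edgeR adjusted p of 0.0317, though the libraries of the groups did not overlap. It passed with only these groups fitted (-0.925, adjusted p = 0.0047) and with no filter on low counts (-0.937, adjusted p = 1.46e-04). *Fxyd6* and *Fxyd2* lie next to each other on chromosome 9, both on the plus strand and 3509 bases apart (GRCm38), at 45370185 to 45396159 and 45399669 to 45410278.

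**Figure D1:**
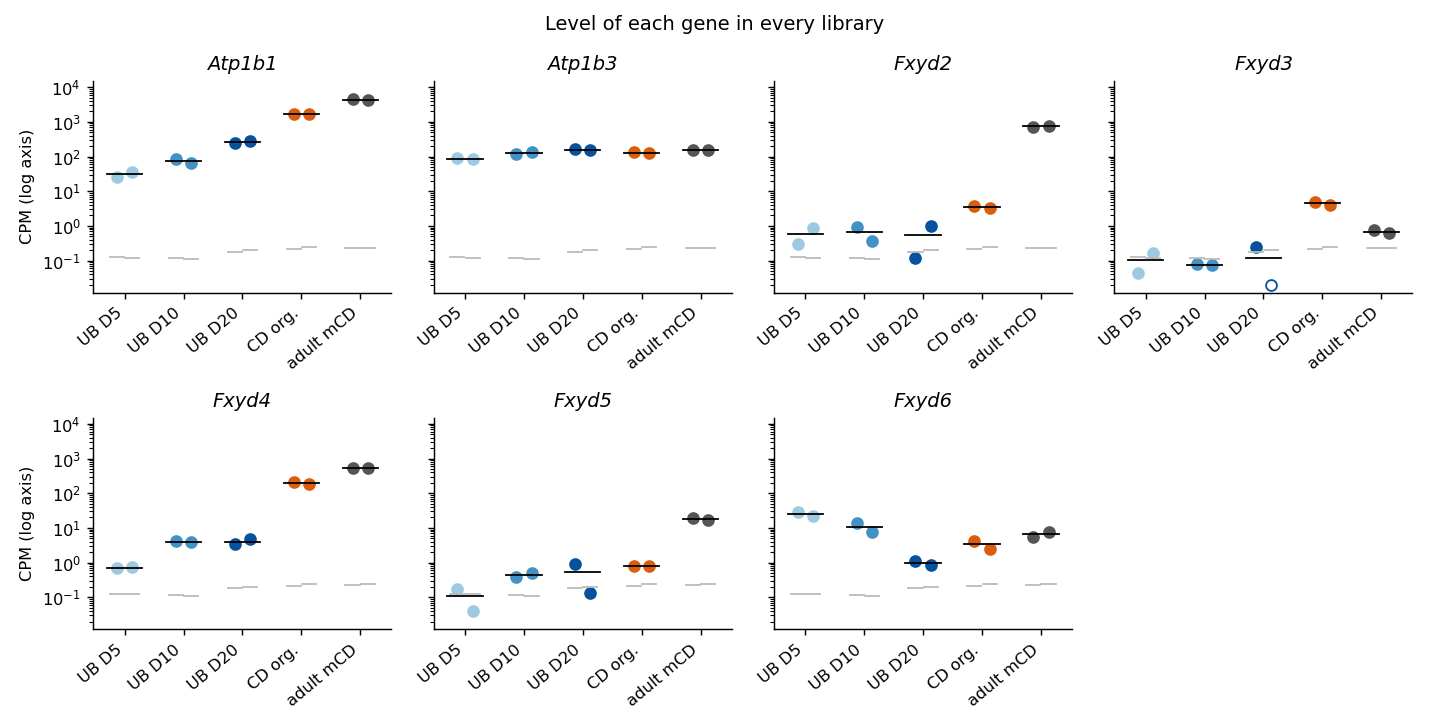
Level of the 7 members in every library, in CPM on a log axis, with 2 points per group, the group mean as a black line and the level of 3 counts as a grey line. The open point marks the one library at 0 counts. Atp1b1 climbs from 25.5 to 4452 CPM across the groups, Atp1b3 stays between 85.5 and 166 CPM, Fxyd2 is high in adult mCD alone, and Fxyd6 is lowest at UB D20.

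Counted over the 7 members, 3 were higher (*Atp1b1*, *Atp1b3*, *Fxyd4*) and 1 lower (*Fxyd6*) at UB D10 than at D5, where 10.5% of all genes tested were higher and 11.8% lower at an adjusted p of at most 0.01. From D10 to D20, 2 were higher (*Atp1b1*, *Atp1b3*) and 1 lower (*Fxyd6*), against 8.76% and 9.93% of all genes, and from D5 to D20 the same numbers as from D5 to D10, against 16.1% and 19.2%. In CD organoids against UB D10, 4 were higher (*Atp1b1*, *Fxyd2*, *Fxyd3*, *Fxyd4*) and 1 lower (*Fxyd6*), against 18.1% and 19.8% of all genes. The median log2 change was 2.37 over the members and -0.15 over all genes tested. Against UB D20, 5 were higher, *Fxyd6* being the fifth, and none lower in edgeR, against 16.8% and 17.1%. *Atp1b3* and *Fxyd5* were the members that did not pass there, at unadjusted p of 0.00579 and 0.366, and the former was lower by limma but not by DESeq2. Against adult mCD, 1 was higher (*Fxyd3*) and 4 lower (*Atp1b1*, *Fxyd2*, *Fxyd4*, *Fxyd5*), against 18.6% and 21.6%. Adult mCD was above UB D20 in 5 members (*Atp1b1*, *Fxyd2*, *Fxyd4*, *Fxyd5*, *Fxyd6*), where 25.4% of all genes were higher, and below it in none by edgeR, where 22.7% were lower. No member was lower there at an unadjusted p under 0.05, and 1 (*Atp1b3*) was lower by limma and none by DESeq2. Counting only changes beyond 4-fold, CD organoids had 4 members higher than UB D10 and the same 4 higher than UB D20 (*Atp1b1*, *Fxyd2*, *Fxyd3*, *Fxyd4*), against 4.96% and 4.74% of all genes, and none lower, against 5.71% and 4.73%. Against adult mCD 1 was higher (*Fxyd3*) and 2 lower (*Fxyd2*, *Fxyd5*), against 4.5% and 9.84%. Within the UB culture, 1 was higher and none lower beyond 4-fold at D10 against D5 (2.34% and 1.07% of all genes), none higher and 1 lower at D20 against D10 (1.66% and 1.73%), and 2 higher and 1 lower at D20 against D5 (4.68% and 3.93%). All 5 members above UB D20 in adult mCD passed 4-fold, where 12.3% of all genes were higher and 6.89% lower by as much. Comparisons that share a group are not independent.

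**Figure D2:**
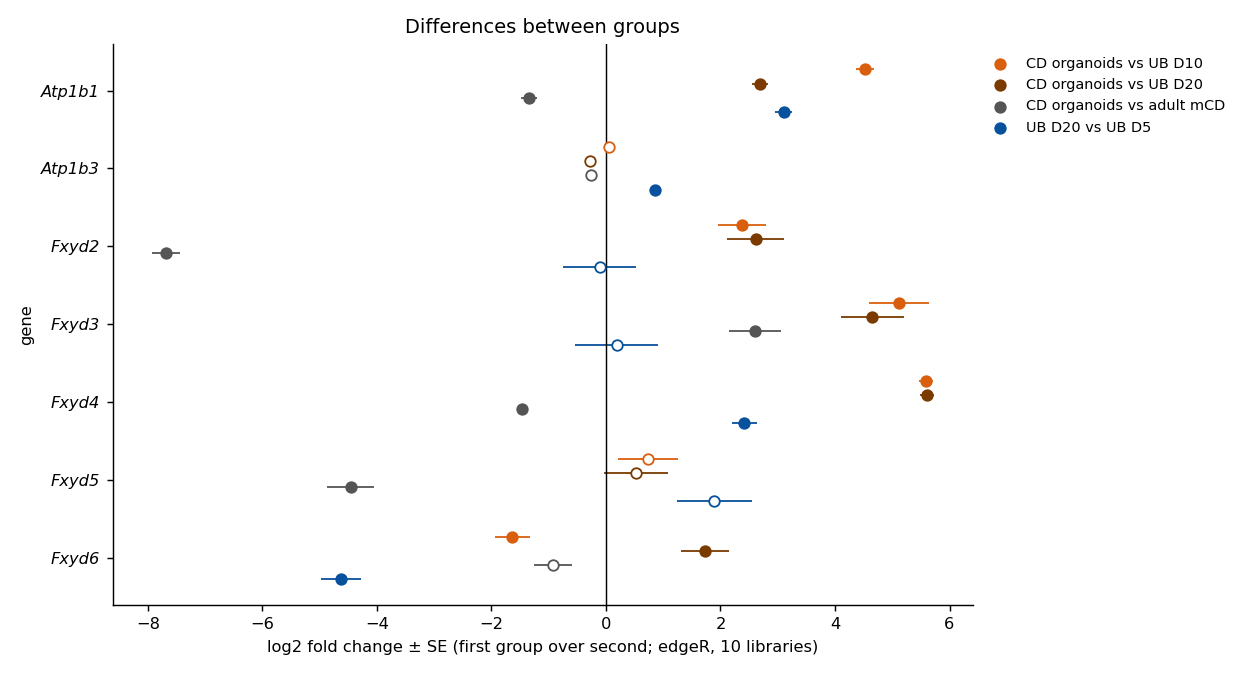
Log2 fold changes with their standard errors for the 7 members in 4 comparisons, from the edgeR fit of 10 libraries. Filled points passed an adjusted p of 0.01 and open points did not. In CD organoids against UB D10, Fxyd4 (5.59), Fxyd3 (5.12) and Atp1b1 (4.53) lie to the right, Atp1b3 lies at 0.06, and against adult mCD Fxyd2 lies farthest to the left at -7.68.

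Levels of different genes can be compared only per length of transcript. The deposited RPKM use a length that sums the exons of all annotated transcripts, so that genes with many listed transcripts come out too low. For *Fxyd4* that length was 3.32 times the merged exon length (1957 bases), for *Fxyd5* 2.87 times, for *Fxyd2* 2.22 times, for *Fxyd3* 1.85 times, for *Fxyd6* 1.45 times, for *Atp1b1* 1.39 times and for *Atp1b3* 1.18 times, against a median of 1.01 over all genes. Shares are therefore given on the deposited RPKM and, as an alternative added after the data were seen, on CPM per merged kilobase. By RPKM, *Atp1b1* made up 18.2% ± 4.1 (SD, n = 2) of the summed level of the 4 beta genes at UB D5, 27.8% ± 5.0 at D10, 52.4% ± 4.1 at D20, 89.7% ± 0.48 in CD organoids and 94.7% in both adult libraries. *Atp1b3* held nearly all of the rest, from 78.4% ± 4.8 at UB D5 to 5.13% ± 0.0049 in adult mCD. By merged length the shares of *Atp1b1* were 20.1%, 30.7%, 56.4%, 91.1% and 95.3%, in the same order. Beta transcripts thus were mostly *Atp1b3* at D5 and D10 and mostly *Atp1b1* in CD organoids and adult mCD on both scales, and at D20 *Atp1b3* held 47.5% ± 4.2 by RPKM.

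Among the 7 Fxyd genes, *Fxyd6* held 81.0% ± 9.0 of the summed RPKM at UB D5 and 62.9% ± 9.6 at D10, and 16.6% ± 6.1 at D20. *Fxyd4* rose from 2.09% ± 0.30 at D5 through 22.8% ± 3.6 at D10 and 60.2% ± 2.7 at D20 to 94.4% ± 1.1 in CD organoids. In adult mCD it shared the family with *Fxyd2*, at 49.1% ± 2.2 for *Fxyd4* and 49.1% ± 2.1 for *Fxyd2*. By merged length the D10 libraries no longer had a clear leader, with 36.5% ± 3.9 for *Fxyd4* and 44.3% ± 9.0 for *Fxyd6*. The adult shares became 59.0% ± 2.1 for *Fxyd4* and 39.4% ± 2.1 for *Fxyd2*, and the CD organoid share of *Fxyd4* 96.7% ± 0.59. The shares at D20 rest on few counts, since the whole family was low there.

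**Figure D3:**
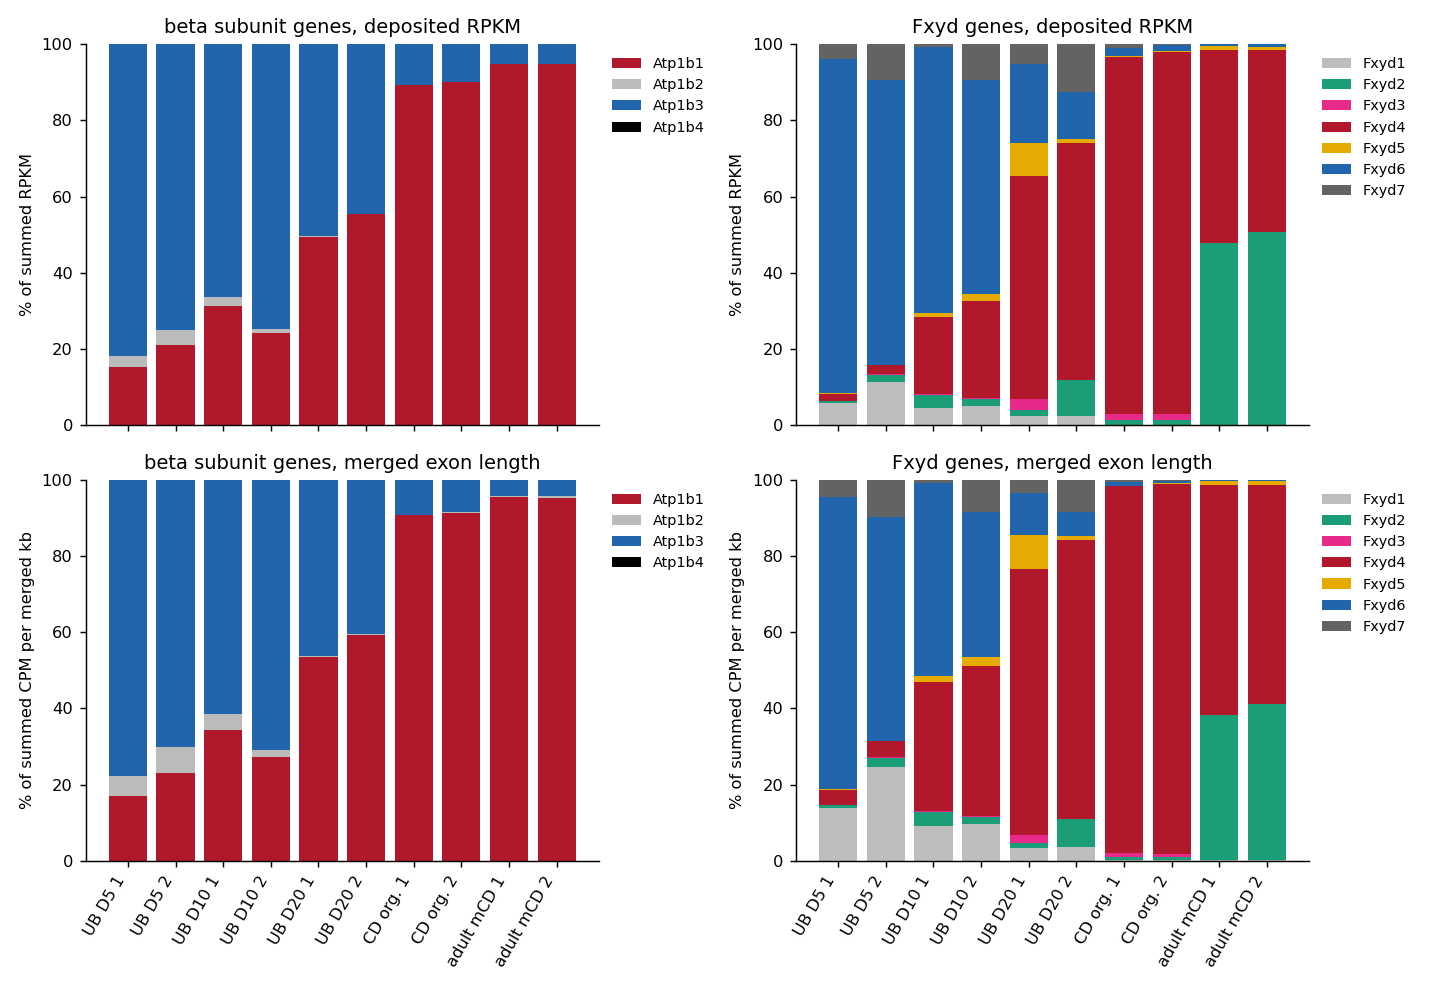
Share of each beta gene (left) and each Fxyd gene (right) in the summed level of its family, in percent, per library, by deposited RPKM (top) and by CPM per merged kilobase of exon (bottom). Bars stack to 100%. The share of Atp1b1 grows from 18.2% at UB D5 to 89.7% in CD organoids by RPKM, Fxyd6 gives way to Fxyd4, and Fxyd2 fills a large part in adult mCD only.

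Per merged kilobase, *Atp1b1* stood at 561 ± 5.8 CPM (SD, n = 2) in CD organoids, above *Fxyd4* (101 ± 6.7 CPM) and *Atp1b3* (54.6 ± 2.2 CPM). Then followed *Fxyd3* (0.920 ± 0.13 CPM), *Fxyd2* (0.890 ± 0.098 CPM) and *Fxyd6* (0.814 ± 0.30 CPM), whose libraries overlapped from neighbour to neighbour, and *Fxyd5* (0.189 ± 0.0032 CPM). In adult mCD the order was *Atp1b1* (1419 ± 37 CPM), *Fxyd4* (278 ± 3.8 CPM), *Fxyd2* (186 ± 14 CPM), *Atp1b3* (65.3 ± 1.7 CPM), *Fxyd5* (4.43 ± 0.38 CPM), *Fxyd6* (1.58 ± 0.39 CPM) and *Fxyd3* (0.143 ± 0.018 CPM), with no overlap between neighbours. At UB D5 *Atp1b3* (36.7 ± 1.3 CPM) led the members, before *Atp1b1* (10.1 ± 2.5 CPM) and *Fxyd6* (6.20 ± 1.2 CPM). By deposited RPKM parts of these orders differed. In CD organoids *Atp1b3* (47.7 ± 2.0 RPKM) then stood above *Fxyd4* (31.4 ± 2.1 RPKM). In adult mCD the libraries of *Fxyd4* (84.6 ± 1.6 RPKM) and *Fxyd2* (84.6 ± 5.9 RPKM) then overlapped.

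Among the other beta and Fxyd genes, *Atp1b2*, a beta subunit known from glia, was lower in CD organoids than at UB D10 (1.30 against 9.70 CPM, log2 -2.83 ± 0.39, edgeR adjusted p = 3.34e-05) and stood at 17.8 CPM in adult mCD. *Fxyd1*, or phospholemman, was at 0.490 CPM in CD organoids, 1.18 CPM at UB D10 (log2 -1.18 ± 0.41, edgeR adjusted p = 0.0306) and 2.35 CPM in adult mCD (log2 -2.14 ± 0.41, edgeR adjusted p = 5.85e-04). Both genes were already lower at UB D20 than at D10 in edgeR. At D20 *Atp1b2* was at 0.910 and 1.39 CPM and *Fxyd1* at 0.182 and 0.264 CPM. Neither passed in CD organoids against UB D20. *Atp1b4* and *Fxyd7* averaged under 0.5 CPM in all groups and passed neither against UB D10 nor against adult mCD.

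Lists of other genes of sodium transport were counted in the same way. Of 8 genes of aldosterone and kinase control, 7 were higher in CD organoids than at UB D10 and none lower in edgeR, at an adjusted or an unadjusted p under 0.05, against 18.1% and 19.8% of all genes (median log2 1.65 against -0.15 over all genes). They included *Sgk1*, a kinase induced by aldosterone (174 against 4.80 CPM, log2 5.16 ± 0.12), *Hsd11b2*, the enzyme that keeps cortisol-type steroids off the mineralocorticoid receptor (38.7 against 3.47 CPM, log2 3.46 ± 0.22), *Nr3c2*, that receptor (41.0 against 3.74 CPM, log2 3.44 ± 0.13), and *Nedd4l*, a ubiquitin ligase of the sodium channel (522 against 124 CPM, log2 2.08 ± 0.09). Against adult mCD 6 of the 8 were lower and 1, *Nedd4l*, higher (log2 0.55 ± 0.08), against 21.6% and 18.6% of all genes, and *Hsd11b2* stood out at 38.7 against 2603 CPM (log2 -6.07 ± 0.20).

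Of 8 sodium entry genes, 4 were higher in CD organoids than at UB D10 and none lower in edgeR, at an adjusted or an unadjusted p under 0.05, against 18.1% and 19.8% of all genes. Against adult mCD 7 were lower and 1 higher, against 21.6% and 18.6% of all genes. *Scnn1a*, the alpha subunit of the epithelial sodium channel, went from 1.95 CPM at UB D10 to 163 CPM in CD organoids (log2 6.33 ± 0.19) and was at 940 CPM in adult mCD. Genes known from other nephron segments were low in CD organoids and high in adult mCD. They were *Slc12a1*, the cotransporter of the loop of Henle (1.65 against 1310 CPM, and higher than at UB D10), *Slc12a3*, that of the distal convoluted tubule (0.864 against 416 CPM), and *Slc9a3*, the proximal sodium-proton exchanger (0.187 against 173 CPM). *Bsnd*, a subunit of chloride channels, was higher in CD organoids than at UB D10 (51.9 against 0.204 CPM, log2 7.63 ± 0.23). *Kcnj1*, an apical potassium channel of principal cells, was at 1.44 CPM in CD organoids and 983 CPM in adult mCD, and *Kcnj10*, a basolateral one, at 2.26 and 432 CPM.

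Of 7 related P-type pump and pump interactor genes, 6 could be tested, and in CD organoids against UB D10 1 was higher (*Atp12a*, a colonic-type H,K-ATPase alpha subunit) and 3 were lower, against 18.1% and 19.8% of all genes. *Nkain1*, which encodes a protein that binds the Na,K-ATPase, fell from 42.0 to 0.851 CPM (log2 -5.57 ± 0.28), and *Nkain2* from 9.72 to 0.703 CPM (log2 -3.67 ± 0.34). In CD organoids and at UB D10, in that order, *Nkain3* was at 2.93 and 3.12 CPM and *Atp4a*, a gastric-type pump subunit, at 0.904 and 2.67 CPM (log2 -1.50 ± 0.26). *Ank2*, an ankyrin of the membrane skeleton, went from 14.2 to 3.33 CPM (log2 -2.06 ± 0.25). These differences all passed an adjusted p of 0.01 in edgeR except that of *Nkain3*.

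Among the 10538 genes with a mean of at least 10 CPM, the patterns most like each member's were found by Pearson's r of log2(CPM + 1) over the 10 libraries, which are 5 groups of 2 and share their depths. *Atp1b1* was most like *Enpp5* (r = 0.998), *Cav2* (0.996) and *Kat2b* (0.996), which all increased in mean level through the 5 groups in the order UB D5, D10, D20, CD organoids and adult mCD. *Atp1b3* was most like *Mmgt1* (0.988), *Angel2* (0.985) and *Cdc42bpa* (0.983). *Fxyd4* was most like *Flot2* (0.999), *Atg13* (0.998) and *Birc3* (0.998), and *Birc3* averaged 1.29, 4.64, 4.70, 69.1 and 128 CPM over the 5 groups. *Birc3* reached a mean of 10 CPM only through its CD organoid and adult levels, so that higher levels there were set by the choice. *Fxyd2* was most like *Susd2*, *Hoga1* and *Pcdh17* (all 0.998), and *Fxyd5* like *Thbs2* (0.992), *Slc6a19* (0.991) and *Ranbp3l* (0.991). All 6 reached a mean of 10 CPM only through their adult level, so that a high adult level was set by the choice. *Fxyd3* was most like *Tmc4* (0.988), *Gsdmc3* (0.988) and *Rac3* (0.983), the last at 77.4 CPM in CD organoids and 8.11 CPM in adult mCD. *Gsdmc3* and *Rac3* reached a mean of 10 CPM only through their CD organoid level. A high level there was thus set by the choice. *Fxyd6* was most like *Arl3* (0.976), *Zfp954* (0.972) and *Lrp1* (0.969), and *Lrp1* went from 314 CPM at UB D5 to 11.48 CPM at D20. Between members, r was highest for *Fxyd2* with *Fxyd5* (0.976) and for *Atp1b1* with *Fxyd4* (0.966), and lowest for *Atp1b3* with *Fxyd6* (-0.815).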

How the data were processed

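Whole-number counts per gene, RPKM values and scaled counts, a signal headed TMM by the authors, were deposited in a single table for 10 libraries. Per the labels, the authors' processing named FastQC 0.11.8, cutadapt 2.5, Trimmomatic 0.36, STAR, edgeR 3.28.1 and GRCm38.p6, and the paper's methods name Partek Flow with its E/M model for reads that fit more than one gene. The labels name QIAgen RNeasy and Illumina TruSeq, the methods Direct-zol and KAPA Stranded kits. The deposited RPKM carry a factor for composition (1.28 and 1.27 in adult mCD) and a length equal, for 98.2% of genes, to the exon lengths plus 1 base per exon summed over all GENCODE M21 transcripts.

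In edgeR 4.0.16 (R 4.3.3), group means over 10 libraries were fitted to the counts of 24410 genes with at least 10 counts in all (prior count 1), tested by quasi-likelihood and adjusted by Benjamini-Hochberg. The threshold for a call was an adjusted p of 0.01, alone or together with a change beyond 4-fold. RPKM gave the shares, and the scaled counts an alternative with limma 3.58.1; DESeq2 1.42.0 was another. Positions came from GENCODE M21 and promoters from RefSeq. The fit was checked on simulated counts. Figures were drawn with matplotlib 3.10.9.

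The members and lists were chosen with earlier results of these data known. Named are the members, other beta and Fxyd genes, in each further list up to 4 genes with the largest change beyond 4-fold in CD organoids against UB D10 or adult mCD, and the 3 genes most like each member. *Atp12a* is named outside this rule, after its value was seen, as a count of 1. Markers of nephron segments, leukocytes, endothelium, stroma and erythroid cells were summed. Results on some other genes of these lists are not reported here.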

Additional observations from a re-analysis of the deposited data

How the results depend on the processing

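The 49 log2 changes of members (7 genes in 7 comparisons) were recomputed under the alternatives in normalization, filter, prior count, samples fitted, test, threshold and libraries left out. Of 732 recomputed values, 666 kept their direction and side of the threshold, 20 newly passed, 17 no longer passed and 29 changed sign, the last all for changes that had not passed. With only the compared groups fitted, 46 of the 49 had enough counts to be tested. With 1 library left in a group, it was assumed to vary like the others.

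Changes of sign, as log2 values, were for *Fxyd4* from D10 to D20 0.033 with DESeq2 size factors, 0.034 with filterByExpr, 0.049 with only those groups fitted and 0.034 with DESeq2, and for *Fxyd5* -0.26 with limma. From D5 to D20 they were 0.00066 for *Fxyd2* with library totals and -0.075 for *Fxyd3* with limma. For *Atp1b3* they were -0.036 with library totals and -0.031 with limma for CD organoids over UB D10, 0.137 with both for CD organoids over adult mCD, and 0.036 with DESeq2 size factors and with DESeq2 for adult mCD over UB D20. The median of all genes moved by 0.34 with library totals and 0.36 with limma on the deposited scaled counts in CD organoids against adult mCD, by -0.41 and -0.40 in adult mCD against UB D20, and by 0.14 with both at D10 against D5. Leaving out single libraries gave ranges of -0.61 to 0.99 for *Fxyd2* and -0.73 to 0.42 for *Fxyd3* at D10 against D5; of -2.00 to 0.60 for *Fxyd2*, -1.27 to 1.20 for *Fxyd3*, -0.27 to 0.25 for *Fxyd4* and -1.43 to 0.92 for *Fxyd5* at D20 against D10; of -1.86 to 0.75 for *Fxyd2* and -1.56 to 0.92 for *Fxyd3* at D20 against D5; of -0.043 to 0.20 for *Atp1b3* in CD organoids against UB D10; of -0.19 to 2.18 for *Fxyd5* against UB D20; and of -0.12 to 0.041 for *Atp1b3* in adult mCD against UB D20.

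In counts of members, 0 instead of 1 were lower at D10 than D5 with only those groups fitted and with limma, where *Fxyd6* had an adjusted p of 0.0198 and 0.0226, and 0 to 1 with single libraries left out. From D10 to D20, 1 instead of 2 were higher with library totals, with only those groups fitted, with limma and with the replicate block, and 1 to 2 with single libraries left out. In CD organoids, 0 to 1 were lower than UB D10 and 3 to 5 higher than UB D20 with single libraries left out. Lower than UB D20 was 1 instead of 0 (*Atp1b3*) with library totals, no filter, only those groups fitted, limma or a threshold of 0.05, and lower in adult mCD than UB D20 was 1 instead of 0 with library totals and limma. The labels do not say that a replicate number marks shared material, and deviations of same-numbered libraries correlated between -0.19 and 0.098. The block changed no other call than *Atp1b3* from D10 to D20 (adjusted p = 0.0102).

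The share of *Atp1b1* among beta genes, by counts, was 23.5%, 35.6%, 62.4%, 92.9% and 96.2% over the 5 groups, and by merged length 91.1% in CD organoids and 95.3% in adult mCD. The share of *Fxyd4* by merged length was 3.96%, 36.5%, 71.5%, 96.7% and 59.0%, and by counts 41.3% in adult mCD; the merged length was chosen after seeing the data. Depth limits *Fxyd2*, *Fxyd3* and *Fxyd5*, with at most 54, 69 and 15 counts per organoid library. It also limits *Fxyd6*, with at most 59 counts in each CD organoid and D20 library.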
